A study of Mus musculus with 12 samples.

Results

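Status epilepticus (SE), a seizure that does not end by itself, was studied here in the hippocampus of mice with 1 intact copy of Srf (serum response factor). Of the 12 arrays of the series, 6 belong to this comparison: 3 from heterozygous mice that had been in SE for 40 min and 3 from heterozygous control mice, with 1 mouse per array. These arrays were chosen by genotype and treatment alone. All 19938 genes with a probe set of their own were measured on them, a probe set being a group of array probes summarised as 1 value. The description turns on the genes that changed by at least 1.5-fold and less than 4-fold and are not among 59 best-known immediate early genes, called mid-size genes below.

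Srf encodes a transcription factor that binds CArG boxes in the promoters of immediate early genes, which neurons transcribe within minutes of strong activity without new protein synthesis. Calcium entry and MAP kinases activate it together with CREB, which binds cAMP response elements, and the first wave includes inhibitors of these same pathways. In the hippocampus, pilocarpine excites neurons through muscarinic receptors until seizures sustain themselves through glutamate.

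All 6 mice carried Srf loxp/+; CaMKCreERT2, on a C57/Bl6 background, and were 7 to 10 weeks old, male and female. The Cre recombinase is driven by a Camk2a promoter in glutamatergic forebrain neurons and is activated by tamoxifen, which controls also received, so that these controls are not wild-type although the sample labels call them so. SE was induced with 335 or 350 mg/kg pilocarpine, given 20 min after 1 mg/kg methyl scopolamine, a muscarinic blocker that hardly enters the brain. Controls received Ringer solution, so that SE cannot be told apart from the drugs. A second pair of groups, 3 Srf mutant mice (Srf loxp/loxp; CaMKCreERT2) with Ringer solution and 3 with pilocarpine that reached grade 4 seizures but no SE, is used only for values beside those of the heterozygous mice.

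Values are deposited log2 levels after robust multiarray averaging, and a difference of 1 is a 2-fold change. Medians of the 12 arrays lay between 6.78 and 6.86, and heterozygous arrays correlated across genes at 0.998 to 0.999 within a group and at 0.993 to 0.994 between groups. Xist, the RNA of the inactive X chromosome, was at 9.92 on the array of 1 control and between 5.02 and 5.18 on the other 5, so that 1 control was female and all mice in SE were male. Summed markers of red cells and leukocytes spanned 9.93 to 10.04 in controls and 9.95 to 10.00 in SE, with 0 of 16 called by limma, 1 at an unadjusted p under 0.05 and 1 by the unpaired test. At that unadjusted limit in limma, 1715 of all 19938 genes were higher and 3208 lower. The summed level of 19 CA1 and CA3 pyramidal cell markers was 15.26 to 15.31 in controls and 15.12 to 15.22 in SE, and that of 20 choroid plexus and ependyma markers 11.65 to 11.99 and 11.34 to 11.62. Both ranges were lower in SE without overlap, 0 and 2 of their members were called lower, and their part in the results below was not tested. Markers of thalamus, striatum and cortex summed to 13.75 to 13.95 in controls and 14.24 to 14.37 in SE, higher in SE without overlap. Of these 24, 3 were called higher (12.5%) and 2 lower (8.33%), beside 4.98% and 7.5% of all genes. The largest change was that of the immediate early gene Nr4a2 (log2 fold change of 1.78). Fezf2 (0.70) and Rorb (0.19) were also higher, while Drd1 (-0.47) and Pde10a (-0.17) were lower. The part of neighbouring tissue in the results below was not tested. The tissue is whole hippocampus, in which fewer cells of a type and less RNA per cell cannot be told apart.

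MicroRNAs are shown first because their products are short enough to be read whole. The 3 that rose by over 1.5-fold and the 2 that fell by over 1.5-fold have these mature sequences in RefSeq, with the seed, bases 2 to 8 that pair with targets, in capitals:

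mmu-miR-212-3p (chr11:75173443-75173464, plus strand): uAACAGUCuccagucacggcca

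mmu-miR-132-3p (chr11:75173723-75173744, plus strand): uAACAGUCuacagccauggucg

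mmu-miR-128-3p (chr1:128202404-128202424, plus strand): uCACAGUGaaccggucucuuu

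mmu-miR-138-5p (chr8:94324312-94324334, plus strand): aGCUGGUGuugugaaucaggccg

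mmu-miR-9-5p (chr3:88215613-88215635, plus strand): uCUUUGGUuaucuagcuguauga

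Positions are those of GRCm38.p6. miR-212-3p and miR-132-3p share the seed AACAGUC and lie side by side on chromosome 11, while the other 3 seeds differ from it and from each other. The array probes the microRNA gene and its precursor, not 1 arm, so that a change in mature microRNA was not measured. Mir212 was at 8.30, 8.33 and 8.37 in the 3 controls and at 9.93, 10.03 and 10.00 in the 3 mice in SE. This is a rise of 1.65 (log2, ± 0.061 standard error, limma adjusted p = 2.62e-09), and every mouse in SE lay far above every control. Mir132, a CREB-induced regulator of dendrites, was at 6.10, 6.34 and 6.24 in controls and at 7.30, 7.74 and 7.93 in SE, a rise of 1.43 (± 0.128 standard error, limma adjusted p = 1.01e-05). Mir128-1, whose product is known to dampen neuronal excitability, was at 6.07, 6.28 and 6.09 against 7.87, 7.23 and 7.49 in SE, and its groups did not overlap either. Mir138-2, whose product limits dendritic spine size, fell from 7.59, 7.87 and 7.55 to 7.20, 6.93 and 6.89 (log2 fold change of -0.66, limma adjusted p = 0.0104). That call was lost when the second control or the third mouse in SE was left out. Mir9-1, which encodes a microRNA of neural progenitors and neurons, fell from 7.36, 7.72 and 7.27 to 6.84, 6.63 and 6.94 (log2 fold change of -0.65, limma adjusted p = 0.00325). At a limma adjusted p under 0.05, 6 of 300 microRNA genes measured were called higher (2.0%) and 3 lower (1.0%), beside 4.98% and 7.5% of all genes, and 49 had a mean level of 7 or more.

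Most of the response was small, and most of the larger changes were rises. At an adjusted p under 0.05 in limma, 993 genes were higher and 1496 lower in SE, which is 4.98% and 7.5% of all genes. The excess of lower calls nearly went after median centring of the arrays, with 1019 higher and 1048 lower, and the lower calls numbered 972 without the third mouse in SE and 986 without the third control. Below 1.5-fold, 702 genes rose and 1396 fell. At 1.5-fold or more, 291 genes rose (1.46% of all genes) and 100 fell (0.502%). At 2-fold or more these numbers were 141 and 6, and at 3-fold or more 69 and 0. The 44 genes that rose 4-fold or more include 13 outside the best-known immediate early genes, among them Gem (3.38), a small GTPase that inhibits calcium channels, Nfil3 (3.21), a transcription factor linked to the clock, and Adamts1 (2.86), a protease of matrix proteoglycans. The other 10 were Cwc25 (2.77), Ppp1r15a (2.66), Lrrc32 (2.29), 4931440P22Rik (2.28), Ccl3 (2.17), Kif18a (2.15), Alkal2 (2.04), Cenpa (2.04), Kcnj2 (2.03) and Pvr (2.00). The median log2 fold change over all genes was -0.03.

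The mid-size genes comprised 225 rises and 100 falls, of which 81 and 6 were at least 2-fold. Their 3 values in SE lay all above or all below the 3 controls for 223 rises and all 100 falls, while over all genes 10.6% were separated upwards and 20.6% downwards. Only the rises Gjb2 and Rgs16 had overlapping groups, and Gjb2 (0.76, limma adjusted p = 0.0498) lost its call in 10 of 17 alternative limma fits. The genes just inside the 1.5-fold limit were Pard6a, at 0.59, and Zfp799, at -0.59. Just outside it were Srsf5, at 0.58, and Tmem177, at -0.58. The plot of change against control level shows both groups over a wide range of levels.

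**Figure D1:**
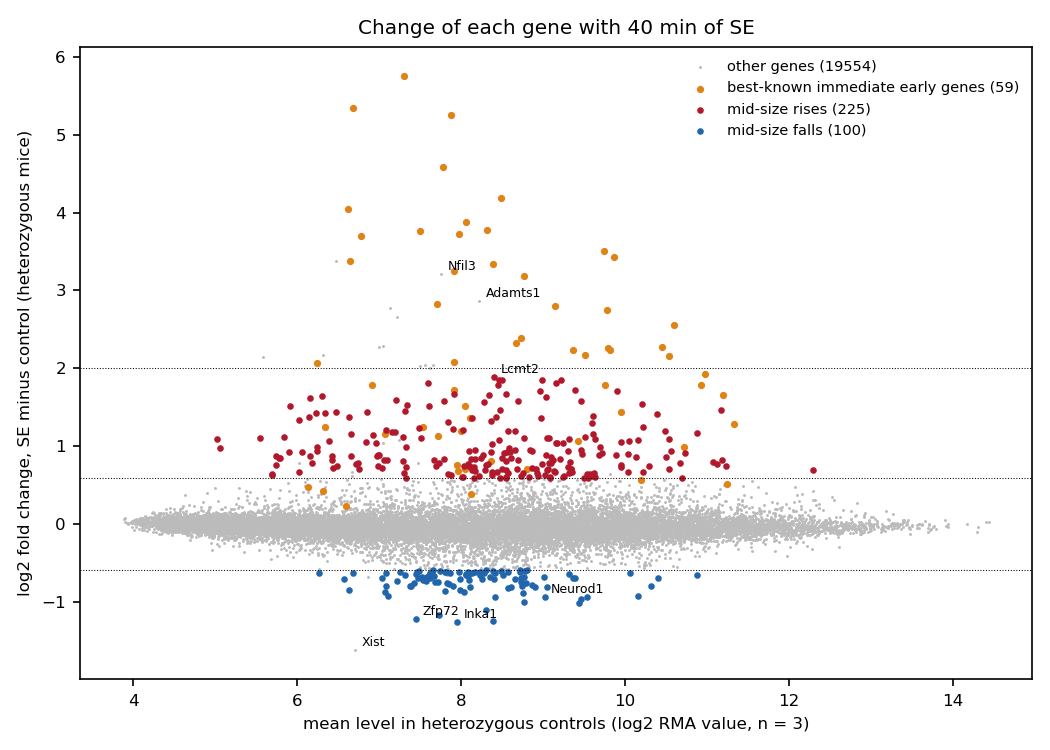
Log2 fold change between heterozygous mice in SE and controls (vertical axis) against the mean log2 level in the 3 controls (horizontal axis) for each of 19938 genes, with dotted lines at 1.5-fold in both directions and at 4-fold. The 225 mid-size rises fill the band between 1.5-fold and 4-fold and the 100 mid-size falls lie close below the lower line, while Xist, which fell by 1.62 without being called, was high on the array of 1 control only.

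The largest mid-size rise was that of Lcmt2, a methyltransferase that completes the modified base wybutosine in phenylalanine tRNA. Its levels were 8.35, 8.46 and 8.40 in controls and 9.94, 10.57 and 10.37 in SE, so that it rose by 1.89 (log2, ± 0.125 standard error, limma adjusted p = 6.84e-07). Rasl11a, a Ras-like GTPase, was at 8.48, 8.45 and 8.56 in controls and 10.21, 10.41 and 10.43 in SE (1.85, limma adjusted p = 2.33e-08). The orphan receptor gene Gpr19 rose from 9.15, 9.25 and 9.23 to 10.78, 11.21 and 11.20. Gm13889, a gene without a known role, rose by as much, from 9.03, 8.95 and 8.97 to 11.10, 10.70 and 10.71. In all of these genes the spread within a group was small beside the difference between groups.

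Membrane sorting and lysosomal breakdown were represented by Vps37b and Gla. Vps37b, a subunit of the ESCRT-I complex that sorts ubiquitinated receptors, was at 8.47, 8.37 and 8.53 in controls and 10.02, 10.45 and 10.43 in SE (1.84, limma adjusted p = 1.23e-07). Gla, the lysosomal alpha-galactosidase encoded on the X chromosome, was at 9.14, 9.15 and 9.19 in controls, including the female, and at 10.82, 11.10 and 11.00 in SE (1.81, limma adjusted p = 9.79e-09). Rassf1, a scaffold that binds Ras proteins and microtubules, was at 7.55, 7.56 and 7.67 in controls and at 9.41, 9.36 and 9.44 in SE, with little spread in either group. Metabolic signalling was represented by Irs2 and Slc16a1. Irs2, the adaptor of insulin and IGF1 receptors, rose from 9.31, 9.43 and 9.44 to 11.09, 11.15 and 11.12 (1.73, ± 0.0469 standard error, limma adjusted p = 1.45e-10). Slc16a1, the transporter of lactate and ketone bodies, rose from 9.89, 9.92 and 9.89 to 11.37, 11.72 and 11.75. The remaining 6 of the 15 largest rises were Dusp4 (1.78), Siah2 (1.71), Ccnl1 (1.66), Gpr3 (1.66), Mir212 and Plaur (1.64).

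**Figure D2:**
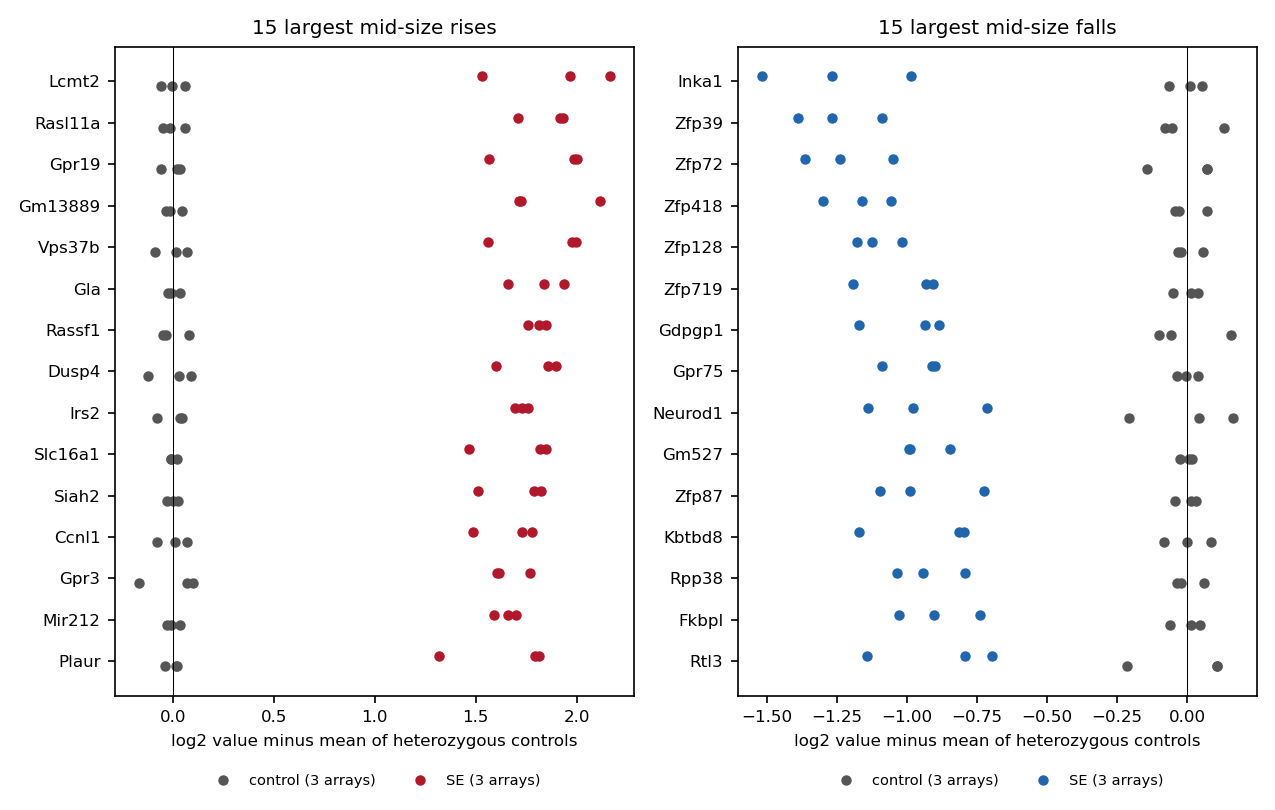
Log2 level of each heterozygous mouse minus the mean of the 3 controls (horizontal axis) for the 15 largest mid-size rises (left) and falls (right), with controls in grey and mice in SE in colour. No mouse in SE overlaps a control in any of the 30 genes.

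Some signalling inhibitors rose while most members of their lists were not called. Of 19 MAP kinase feedback inhibitors, 6 were called higher (31.6%) and 1 lower, beside 4.98% and 7.5% of all genes, with a median log2 fold change of 0.07 beside -0.03 over all genes. The list leaves out the phosphatase genes Dusp1 (3.50) and Dusp5 (2.39), which were counted among the best-known immediate early genes. Dusp4, a nuclear phosphatase of ERK, was at 8.33, 8.48 and 8.55 in controls and 10.05, 10.31 and 10.35 in SE. Spry2, a brake on receptor tyrosine kinases, was at 9.48, 9.52 and 9.78 against 10.74, 10.98 and 10.94 (1.29, limma adjusted p = 3.23e-05), and Spry4 (0.65) and Dusp14 (0.59) rose less. Among 15 RGS proteins, which shorten G protein signals, 2 rose and 1 fell. Rgs4 was already high in controls, at 11.17, 11.08 and 11.25, and reached 12.50, 12.67 and 12.70 in SE (1.46, limma adjusted p = 3.67e-07). Rgs16 (0.84, limma adjusted p = 0.0194) overlapped between groups and lost its call when any 1 of 4 of the heterozygous arrays was left out. Of 26 small GTPases and regulators, 7 rose and 1 fell, with Rasd1 (1.08), a dexamethasone-induced GTPase, and Rasl11b (0.98) after Gem and Rasl11a.

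Inducible kinases and cAMP genes had a few called members in lists with medians near 0. Of 29 inducible kinases, 8 rose (27.6%, beside 4.98% of all genes) and 2 fell (median of 0.07), led by Clk1 (1.37), which phosphorylates SR splicing factors, Sgk1 (1.06), Stk40 (0.95) and Pim3 (0.70). Sgk1, a kinase that glucocorticoids induce, was at 10.03, 10.19 and 9.91 in controls and 10.97, 11.09 and 11.25 in SE. Of 25 genes of cAMP signalling, 4 rose and 2 fell, with the anchoring protein Akap12 at 0.84 and the phosphodiesterases Pde4d at 0.33 and Pde4b at 0.20. Gpr3, a receptor that raises cAMP without a ligand, rose from 8.38, 8.62 and 8.64 to 10.16, 10.16 and 10.31 (1.66, limma adjusted p = 1.19e-07). Of 22 CREB and ATF family genes, 3 rose and 3 fell, with Atf4 (0.76), the effector of the integrated stress response, Crem (0.65) and Crebzf (0.35) higher and Atf1 (-0.36) lower. This list leaves out Atf3, which rose by at least 1.5-fold and was counted among the best-known immediate early genes.

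Neuropeptides and their processing genes were called in 1 direction. Of 30 such genes, 8 were higher (26.7%, beside 4.98% of all genes) and 0 lower, 7 of the 8 by mid-size amounts, with a median of 0.10. Pcsk1, the convertase that cuts peptide precursors, rose from 9.64, 9.64 and 9.55 to 10.85, 10.98 and 11.18 (1.39, limma adjusted p = 0.000284). Adcyap1, which encodes the peptide PACAP, rose from 8.08, 8.36 and 7.86 to 8.95, 8.98 and 9.18 (0.94, limma adjusted p = 0.000945). Crh, the stress peptide corticotropin-releasing hormone, was at 5.91, 5.94 and 5.85 in controls, near the dim end of the array, and at 6.58, 6.87 and 7.03 in SE (0.93, limma adjusted p = 2.86e-05). Neurotensin, Nts, rose from 6.90, 6.89 and 7.14 to 7.73, 7.98 and 7.84. Mice in SE lay above all controls in each of the 4 genes. Scg2 (0.86) and Vgf (0.70), precursors stored in dense-core vesicles, rose as well, and so did the interneuron peptides Tac1 (0.60) and Sst (0.31), of which Tac1 lost its call without the first control, the first mouse in SE or the third mouse in SE.

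Calls among secreted and inflammatory genes were few and mostly higher. Of 40 chemokines and cytokines, 6 rose (15%) and 1 fell (2.5%), beside 4.98% and 7.5% of all genes, and the median was 0.03. Ccl2, which attracts monocytes, was at 6.28, 6.37 and 6.38 in controls and at 7.71, 7.34 and 8.26 in SE (1.43, limma adjusted p = 8.36e-05), where the third mouse was the highest. Ccl7, its neighbour on the chromosome, was at 6.58, 6.71 and 6.60 against 7.87, 7.78 and 8.36. Il1a (1.09) started among the dimmest values of the array, between 4.89 and 5.20. Of 31 NF-kappaB components and targets, 6 rose (19.4%) and 0 fell, with the nuclear inhibitor Nfkbiz (1.18), Nfkbid (0.58), Tnfaip3 (0.42) and Rel (0.34). Of 27 genes of interleukin-6 and STAT3 signalling, 3 rose (11.1%) and 2 fell (7.41%), with the feedback inhibitor Socs3 at 0.99 and the receptor chain Il10rb at -0.62. Of 48 matrix and protease genes, 9 rose (18.8%, and 5 genes without the third mouse in SE) and 0 fell, with Plaur, the urokinase receptor, rising from 6.32, 6.26 and 6.32 to 8.12, 7.62 and 8.10 and tissue plasminogen activator, Plat, by 0.82. Of 27 microglia markers, 2 were higher (7.41%) and 4 lower (14.8%), with summed levels of 13.68 to 13.82 in controls and 13.70 to 13.80 in SE. Of 26 astrocyte markers, only Sox9 (0.46) was called.

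Growth factor and developmental genes were called in both directions. Of 43 growth factors and receptors, 5 rose (11.6%) and 1 fell (2.33%), beside 4.98% and 7.5% of all genes, with Hbegf, an EGF receptor ligand, at 1.02, Lif at 0.56 and the pericyte receptor Pdgfrb at -0.48. Of 42 genes of TGF-beta, activin and BMP signalling, 9 rose (21.4%) and 4 fell (9.52%), and the largest rises were the inhibitors Bambi (0.70), Smad7 (0.66) and the BMP target Id1 (0.65), with the inhibin subunit Inha at 0.60. Of 28 Notch genes, 4 rose (14.3%) and 5 fell (17.9%). The ligand Dll4 rose from 7.04, 6.92 and 7.03 to 7.93, 7.62 and 8.11 (0.89, limma adjusted p = 0.000199), whereas Lfng (-0.65), which glycosylates Notch, and the target Hes5 (-0.52) fell and Hey2 rose by 0.45. Of 44 Wnt genes, 0 rose and 6 fell (13.6%), although the median of the list was -0.01. The receptor Fzd8 fell from 8.55, 8.42 and 8.30 to 8.07, 7.88 and 7.89 (-0.48, limma adjusted p = 0.000649), and Wnt5a (-0.48), Axin2 (-0.46) and Fzd7 (-0.33) were also lower. The number of Wnt genes called lower was 3 after median centring of the arrays, and 3 as well without the second control, the third control or the third mouse in SE. Fzd7 lost its call without any 1 of these arrays, and also without the first or second mouse in SE.

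Genes of RNA handling and gene control were called in both directions, more often higher. Of 42 splicing and RNA-binding factors, 7 rose (16.7%) and 2 fell (4.76%), beside 4.98% and 7.5% of all genes, and the median was 0.08. Ptbp1, the splicing repressor that neurons normally keep low, rose from 9.47, 9.46 and 9.58 to 10.55, 10.52 and 10.80 (1.12, limma adjusted p = 2.72e-06), while Srsf5 (0.58) and Sf3b1 (0.57) were higher and Rbm10 (-0.51) lower. Clk1 was at 8.90, 9.14 and 8.89 in controls and 10.31, 10.38 and 10.34 in SE. Ccnl1, a cyclin of splicing kinases, was at 7.83, 7.98 and 7.92 against 9.68, 9.39 and 9.64 (1.66, limma adjusted p = 3.07e-08), and Cdk11b, the kinase it binds, rose by 1.08. Of 42 genes of mRNA decay and translation control, 11 rose (26.2%) and 5 fell (11.9%), with the decay factors Zc3h12c (0.91), Zfp36l2 (0.80) and Btg1 (0.80) higher and the decapping factor Dcp1a (-0.69) lower. Of 65 chromatin regulators and elongation factors, 12 rose (18.5%) and 8 fell (12.3%), with the histone demethylases Kdm6b (1.11) and Kdm7a (0.50) and the elongation factors Aff1 (0.88) and Ell2 (0.78). Of 84 neuronal and developmental transcription factors, 21 rose (25%) and 5 fell (5.95%), with Arid5a at 1.30 and Emx2 at 0.71 after Nfil3. Of 12 clock genes, 3 rose, namely Ciart (1.58), a repressor of the clock, Cry2 (0.54) and Per2 (0.28), the last of which lost its call without any control or without the first or second mouse in SE. These 12 leave out Per1, which rose by at least 1.5-fold and was counted among the best-known immediate early genes.

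Called genes of protein turnover and heat shock were more often higher than lower. Of 34 ubiquitin ligases and turnover genes, 13 rose (38.2%) and 2 fell (5.88%), beside 4.98% and 7.5% of all genes, and the median was 0.04. Siah2, a ligase that regulates the hypoxia response, rose from 8.98, 8.93 and 8.96 to 10.47, 10.75 and 10.78 (1.71, limma adjusted p = 4.99e-09). The F-box gene Fbxo33 rose from 10.08, 10.20 and 10.34 to 11.76, 11.80 and 11.69 (1.54, limma adjusted p = 3.45e-09), and the deubiquitinase Usp36 (1.32) and the ligase Rnf217 (1.04) rose too. Of 26 heat shock genes and chaperones, 4 rose (15.4%) and 0 fell: Bag3 (1.21), Dnajb4 (1.19), Dnajb1 (0.90) and Hspa1a (0.82). The median of this list was 0.01. At an unadjusted p under 0.05 in limma, 5 of its members were higher and 4 lower, and the unpaired test called 2 higher and 1 lower. For all 19938 genes these numbers were 1715 and 3208 at the unadjusted limit and 397 and 500 in the unpaired test. Dnajb4 was at 10.37, 10.57 and 10.52 in controls and at 11.63, 11.76 and 11.65 in SE. Hspa8, the constitutive member, differed by 0.01 and Hsp90aa1 by 0.09, and neither was called. Of 29 genes of the unfolded protein and integrated stress response, 5 rose (17.2%) and 3 fell (10.3%), with Sesn2 (0.93), Ppp1r15b (0.39) and Chac1 (-0.32) after Ppp1r15a. Of 34 p53 targets, 9 rose (26.5%) and 4 fell (11.8%), among them the proapoptotic Bcl2l11 (0.78), Tnfrsf10b (0.67), Tnfrsf12a (0.64) and the repressor Bcl6 (0.55).

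In the metabolic lists a minority of members rose. Of 25 cholesterol synthesis genes, 9 rose (36.0%, beside 4.98% of all genes) and 1 fell, and the median was 0.09. Cyp51, the lanosterol demethylase, rose from 9.32, 9.21 and 9.25 to 9.90, 9.78 and 9.92 (0.61, limma adjusted p = 8.41e-06), and Pmvk (0.54), Idi1 (0.53) and Insig1 (0.51) followed. Of 26 glucocorticoid-responsive genes, 9 rose (34.6%) and 1 fell (median of 0.13), with Sgk1, Pdk4 (0.85), the MAP kinase kinase kinase Map3k6 (0.70) and Bcl6 outside the immediate early genes. Pdk4 lost its call when the second control, the third control or the third mouse in SE was left out. Of 31 hypoxia-inducible factor targets, 7 rose (22.6%, and 4 genes without the third mouse in SE) and 2 fell, with adrenomedullin, Adm (0.74), and the glucose transporters Slc2a3 (0.56) and Slc2a1 (0.43). Of 22 glycolysis genes, 4 rose (18.2%) and 0 fell, and the list held Slc2a1, Slc2a3 and Pfkfb3 (0.34) among its called members. Of 34 amino acid, monocarboxylate and ion transporters, 5 rose (14.7%) and 3 fell (8.82%), with the mitochondrial ATP-Mg carrier Slc25a25 at 1.20 and the iron exporter Slc40a1 at -0.68. Oxidative phosphorylation subunits had 0 of 74 called by limma and a median of -0.09. At an unadjusted p under 0.05 in limma, 25 were lower and 0 higher, and an unpaired test of each gene called 3 lower. Over all 19938 genes, 1715 were higher and 3208 lower at that unadjusted limit, and the unpaired test called 397 and 500.

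Few genes of the synaptic lists were called. These lists leave out Arc and Nptx2, which rose by at least 1.5-fold and were counted among the best-known immediate early genes. Of 25 genes of the GABA and glycine synapse, limma and the unpaired test both called 0. At an unadjusted p under 0.05 in limma, 2 were higher and 1 lower, beside 1715 and 3208 of all 19938 genes. Of 52 glutamate receptor and scaffold genes, 4 rose (7.69%, beside 4.98% of all genes) and 0 fell (beside 7.5%), and these were the synaptic organisers Lrrtm2 (0.47) and Lrrtm1 (0.36), Syne1 (0.39) and neuritin, Nrn1 (0.31), with no subunit of a receptor among them. Of 37 vesicle release genes, 3 rose (8.11%) and 0 fell. Of 64 potassium channel genes, 3 rose (4.69%) and 4 fell (6.25%), with the inward rectifier Kcnj2 rising from 7.48, 7.53 and 7.46 to 8.97, 9.81 and 9.79 (2.03, limma adjusted p = 1.86e-05), and the modulatory subunits Kcne4 (0.88), Kcnf1 (0.70) and Kcnv1 (-0.40) changing less. The call of Kcnf1 was lost without the first control, the first mouse in SE or the third mouse in SE. Of 17 cholinergic genes, the muscarinic receptor Chrm4 rose by 0.73, whereas Chrm1 (-0.22), the receptor thought to carry most of the pilocarpine response, and Chrna5 (-0.26) fell slightly. Without the third control the call of Chrm1 was lost, and without the second control or the third mouse in SE that of Chrna5.

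**Figure D3:**
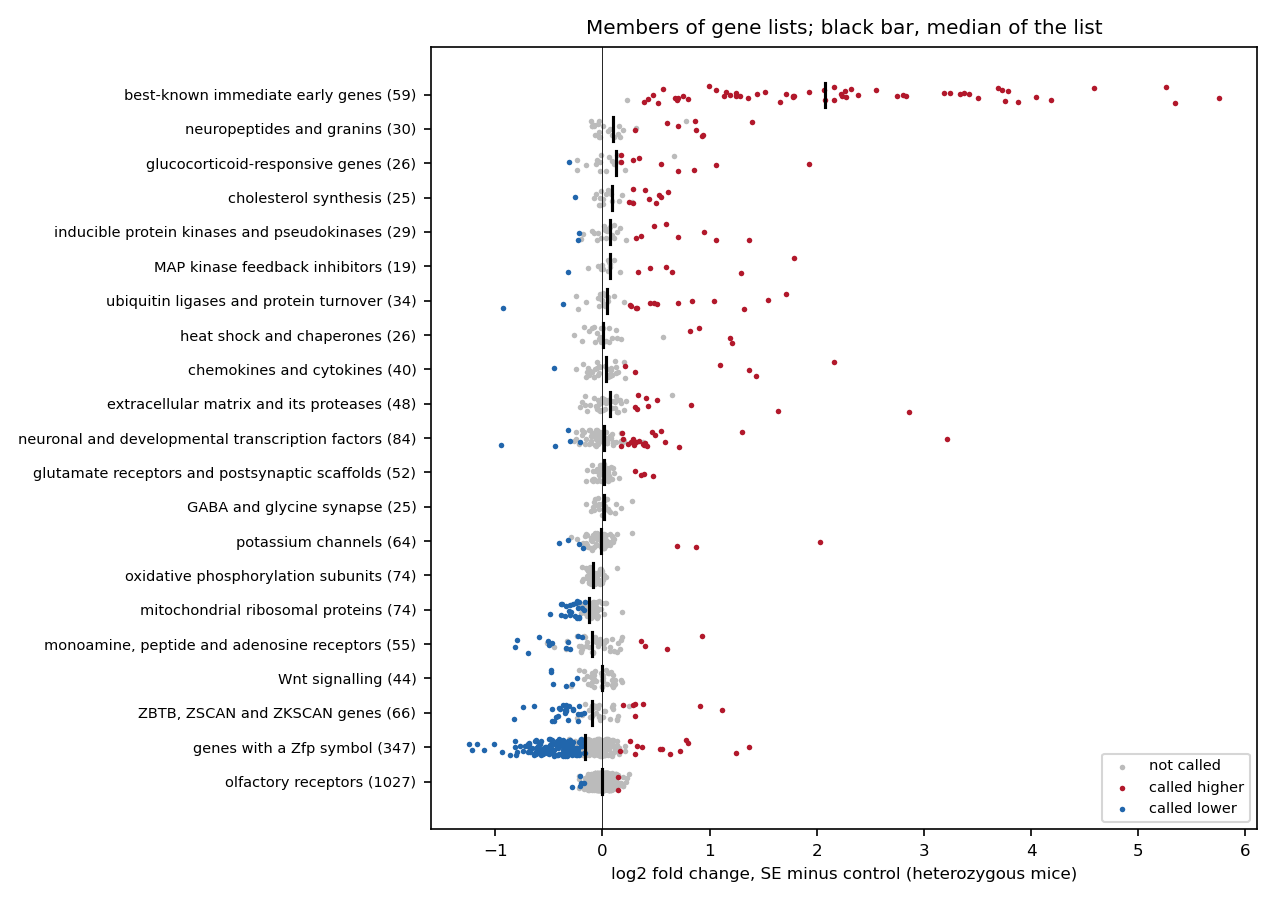
Log2 fold change in heterozygous mice (horizontal axis) of each member of 21 gene lists, with the number measured in brackets, called rises in red, called falls in blue and the median as a black bar. Most lists sit near 0 with a few called members to the right, while the genes with a Zfp symbol and the mitochondrial ribosomal proteins extend to the left.

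Receptors for modulators fell more often than they rose. Of 55 receptor genes for monoamines, peptides and adenosine, with their ligands, 4 rose (7.27%) and 12 fell (21.8%), beside 4.98% and 7.5% of all genes, and the median was -0.10. Sstr3, a somatostatin receptor of neuronal cilia, fell from 8.68, 8.56 and 8.58 to 7.83, 7.81 and 7.73 (-0.81, limma adjusted p = 1.48e-06). The neuropeptide Y receptor Npy1r fell from 8.69, 8.71 and 8.81 to 8.06, 7.73 and 8.03 (-0.80, limma adjusted p = 9.12e-05). The microglial purine receptor P2ry13 fell from 9.48, 9.28 and 9.39 to 8.72, 8.81 and 8.54. In each of the 3 genes, all mice in SE lay below all controls. Npy5r (-0.50) and the serotonin receptor Htr1a (-0.51) were lower as well, while Sstr1 (0.61) and Sstr2 (0.40) rose. The call of Sstr1 was lost without the third control, the first mouse in SE or the third mouse in SE. Of 71 genes with a Gpr symbol, 6 rose (8.45%) and 9 fell (12.7%), shares near those of all genes, and as few as 4 fell when the first control, the third control or the third mouse in SE was left out. They included Gpr19 and Gpr3 at 1.85 and 1.66 and Gpr75 and Gpr12 at -0.97 and -0.58. Napepld, an enzyme that makes anandamide and its relatives, fell from 10.26, 10.37 and 10.33 to 9.68, 9.47 and 9.42 (-0.79, limma adjusted p = 1.64e-05).

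Among the falls, zinc finger genes were the most frequent kind. Most genes with a Zfp symbol encode DNA-binding proteins with C2H2 zinc fingers, many with a KRAB domain that represses transcription, although a few, such as Zfp36, bind RNA. Of 347 measured, 136 were called lower (39.2%, beside 7.5% of all genes) and 13 higher (3.75%, beside 4.98%), and the median was -0.16 beside -0.03 over all genes. They made up 33 of the 100 mid-size falls and 5 of the 225 rises. Zfp39 fell from 8.32, 8.34 and 8.52 to 7.30, 7.13 and 7.01 (-1.25, limma adjusted p = 1.94e-06). Zfp418, a KRAB repressor, fell from 7.68, 7.80 and 7.70 to 6.67, 6.57 and 6.43, and Zfp128 from 8.27, 8.36 and 8.28 to 7.28, 7.18 and 7.12. All 3 had non-overlapping groups and small spreads. Zfp948 was an exception and rose from 8.41, 8.39 and 8.46 to 9.98, 9.59 and 9.80 (1.37, limma adjusted p = 9.48e-07). Of 66 ZBTB, ZSCAN and ZKSCAN genes, 25 fell (37.9%) and 7 rose (10.6%), with Zbtb6 at -0.82 and Zbtb10 at 1.12. The 25 falls became 15 without the first control, 16 without the second or the third, and 5 in the unpaired test, and the 7 rises became 4 without the third control. That this symbol group holds many falls was known from earlier work on these arrays, so that its count is a description.

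The falls outside the zinc finger genes had varied roles. Inka1, an inhibitor of the kinase PAK4, fell most, from 7.89, 8.0 and 7.96 to 6.69, 6.97 and 6.43 (-1.26, limma adjusted p = 3.33e-05). Neurod1, which drives granule cell differentiation, went down from 8.81, 9.19 and 9.06 to 8.31, 8.04 and 7.88 (-0.94, limma adjusted p = 0.00011), while its list of 15 granule cell and mossy fibre markers had 1 other call, a rise, and a median of 0.01. Gdpgp1, an enzyme that clears GDP-glucose, fell from 8.67, 8.71 and 8.93 to 7.84, 7.89 and 7.60. Groups were also fully apart for Rpp38, a subunit of RNase P, which fell from 10.12, 10.13 and 10.21 to 9.36, 9.21 and 9.12 (-0.92, limma adjusted p = 7.01e-06). Kbtbd8 (-0.93) encodes an adaptor of a ubiquitin ligase and Fkbpl (-0.89) a protein that binds HSP90. Over all genes, 4.98% were called higher and 7.5% lower, with a median of -0.03, and the list counts that follow are set beside these shares. Mitochondrial ribosomal proteins were lower by small amounts, with 22 of 74 called lower (29.7%), 0 higher and a median of -0.13. Among them Mrpl50 (-0.49) was the largest fall. Cytosolic ribosomal proteins had 3 of 61 called lower (4.92%, under the share of all genes) and a median of -0.03. Of 130 coiled-coil domain genes 20 fell (15.4%) and 2 rose, of 224 transmembrane protein genes 34 fell (15.2%) and 9 rose, and of 136 F-box and BTB-Kelch genes 24 fell (17.6%) and 6 rose. The coiled-coil falls dropped to as few as 11 when the third control, the first mouse in SE or the third mouse in SE was left out. Olfactory receptors, which the hippocampus hardly expresses, had 2 of 1027 called higher and 5 lower.

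Gene spans are given with no test. Between the ends given by the RefSeq annotation of GRCm38.p6, the median gene span was 12.8 kb for the rises and 12.5 kb for the falls. It was 17.7 kb over all genes and 25 kb over genes with a mean level of 7 or more. Spans under 10 kb were found for 40.9% of the rises and 32.0% of the falls, beside 24.8% of genes with a mean level of 7 or more. Of the 225 rises, 11 (4.89%) lay within 10 kb of another gene that rose by 1.5-fold, beside 1.22% of genes that did not rise so. Such pairs included Ccl2 with Ccl7, Mir132 with Mir212, and Emd with Flna. Acd and Pard6a overlap, so that reads of 1 gene by probes of the other cannot be told apart.

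Promoter windows of 300 bases, from 250 before to 50 after a RefSeq start, were available for 166 of the 225 rises, 85 of the 100 falls and 47 of the 59 best-known immediate early genes. They were searched on both strands for the full cAMP response element TGACGTCA, its short form TGACG, which the full form contains, the EGR site GCGNGGGCG, the AP-1 site TGANTCA, the TATA box TATAAA, and the CArG box and NF-kappaB site. The short cAMP response element was in 45.6% of windows of the rises, 26.0% of the falls and 58.8% of the best-known immediate early genes, beside 30.5% for genes with a mean level of 7 or more and 25% for all genes. The full element was in 7.35% of windows of the rises, 1.0% of the falls and 7.35% of the immediate early genes, beside 3.01% for genes with a mean level of 7 or more and 2.38% for all genes. Its 15 windows among the rises included those of Ccnl1, Pcsk1, Scg2, Slc25a25, Tinf2 and Zdbf2. CArG boxes were in 1.96% of windows of the rises and in 10.3% of those of the immediate early genes, beside 1.3% for genes with a mean level of 7 or more and 1.41% for all genes. The rises with a CArG box were Gm34583, Ranbp2, Srf and Vcl, the last 2 being known targets of SRF. A TATA box was in 12.7%, 9.0% and 16.2% of windows of the rises, falls and immediate early genes, beside 6.92% for genes with a mean level of 7 or more and 11.5% for all genes. EGR sites were in 13.2%, 6.0% and 16.2%, beside 11.2% and 8.17%, AP-1 sites in 8.33%, 6.0% and 2.94%, beside 4.75% and 6.88%, and NF-kappaB sites in 4.41%, 8.0% and 11.8%, beside 7.28% and 6.61%. Base composition differed between the sets, and the short cAMP response element itself holds a CG pair. The median share of G and C was 61.3% in windows of the rises, 55.3% in the falls and 62.2% in the immediate early genes. It was 61.3% for genes with a mean level of 7 or more. Median counts of CG pairs were 22, 15.5, 21 and 21 in the same order. Windows of 1 gene can overlap, a motif is not evidence of binding, and neither the motif shares nor the part of base composition in them was tested.

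The first 4 rises and first 2 falls that have a window with a motif are shown by 100 bases around it, from RefSeq and GRCm38.p6, with the motif in capitals, as examples of what the shares count:

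Lcmt2 (rise, chr2:121140849-121140948, minus strand, short cAMP response element): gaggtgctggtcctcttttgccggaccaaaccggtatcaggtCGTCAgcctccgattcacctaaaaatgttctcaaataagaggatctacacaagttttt

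Rasl11a (rise, chr5:146844934-146845033, plus strand, short cAMP response element): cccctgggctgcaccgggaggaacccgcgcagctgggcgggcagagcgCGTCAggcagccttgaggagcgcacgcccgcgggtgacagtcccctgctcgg

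Gpr19 (rise, chr6:134897896-134897995, minus strand, EGR site): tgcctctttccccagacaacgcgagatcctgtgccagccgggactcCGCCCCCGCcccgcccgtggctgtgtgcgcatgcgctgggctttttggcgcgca

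Gla (rise, chrX:134601156-134601255, minus strand, short cAMP response element): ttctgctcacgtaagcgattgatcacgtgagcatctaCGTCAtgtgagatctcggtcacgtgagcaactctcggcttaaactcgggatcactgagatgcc

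Inka1 (fall, chr9:107986067-107986166, minus strand, EGR site): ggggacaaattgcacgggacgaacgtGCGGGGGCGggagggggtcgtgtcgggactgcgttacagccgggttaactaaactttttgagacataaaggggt

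Zfp72 (fall, chr13:74390806-74390905, minus strand, full cAMP response element): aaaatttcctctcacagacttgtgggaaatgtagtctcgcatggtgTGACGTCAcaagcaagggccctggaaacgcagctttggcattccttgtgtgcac

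In the windows of Lcmt2, Rasl11a and Gla the short element is read as CGTCA because it lies on the strand opposite to the one printed, and in that of Gpr19 the EGR site does so too. Zfp72 shows that the full element also occurs upstream of a gene that fell, from 7.31, 7.53 and 7.52 to 6.21, 6.09 and 6.40 (-1.22, limma adjusted p = 9.88e-06). It was the only 1 of 100 windows of the falls to hold it.

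**Figure D4:**
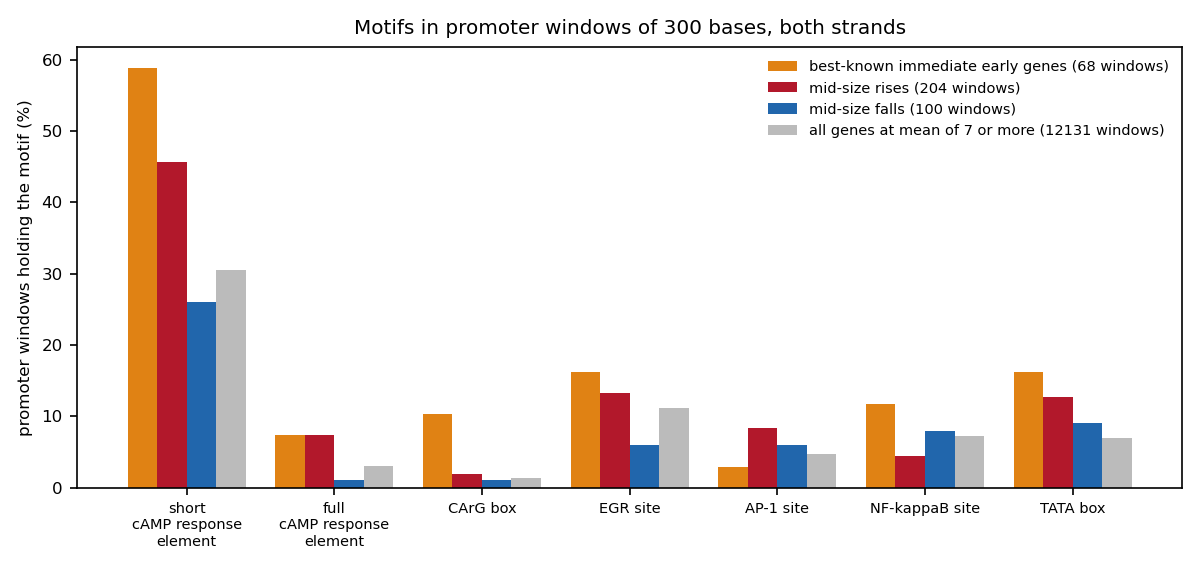
Share of promoter windows of 300 bases that hold each motif on either strand (vertical axis, percent), for the best-known immediate early genes, mid-size rises, mid-size falls and genes with a mean level of 7 or more. The short cAMP response element is in 58.8% and 45.6% of windows of the immediate early genes and the rises and in 26.0% and 30.5% of the other two groups, and the CArG box in 10.3% of windows of the immediate early genes, 1.96% of the rises, 1.0% of the falls and 1.3% of genes with a mean level of 7 or more.

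Srf mutants given pilocarpine showed how the same genes behaved without SE, but genotype and SE differ together and cannot be told apart. The 225 rises had a median log2 fold change of 0.88 in heterozygous mice and 0.20 in the mutants, and the 100 falls of -0.69 and -0.13. Against their own controls, 58 of the rises were also called higher in the mutants, beside 0.978% of all genes. Of the falls, 9 were also called lower, beside 1.06%. Mutant fold changes were not used to choose the genes, but mutant arrays entered the choice of probe set and the shared spread behind the calls. With only the heterozygous arrays fitted, 321 of the 325 mid-size genes kept their call. The choice can still favour genes with a small spread in mutants, so that the counts of 58 and 9 are descriptions. The difference between the responses was called for 156 rises and 70 falls, beside 2.09% and 1.59% of all genes, and in each of these the mutant response was the smaller or opposite one. As the genes were chosen for a large change in heterozygous mice, these last counts are descriptions.

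For some mid-size genes the difference between genotypes was not called. Ccl2 rose by 1.91 in the mutants (limma adjusted p = 7.94e-05) and its responses differed by -0.48 (± 0.231 standard error, limma adjusted p = 0.344). Ccl7 rose by 1.33 there and differed by 0.05 (± 0.191 standard error). Dio2, which activates thyroid hormone, rose by 1.04 in heterozygous mice and 1.23 in the mutants, a difference of -0.19 (± 0.120 standard error, limma adjusted p = 0.512). Usp53 rose by 0.61 in both. Others differed little without SE: Lcmt2 differed by -0.03 between mutants with and without pilocarpine, Siah2 by 0.04, Vps37b by 0.06 and Trmt61b, a tRNA methyltransferase of mitochondria, by 0.01, none of them called. Htr5b, a serotonin receptor gene, was the only mid-size gene called in opposite directions, at -0.59 in heterozygous mice and 0.60 in the mutants (limma adjusted p = 0.00524).

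**Figure D5:**
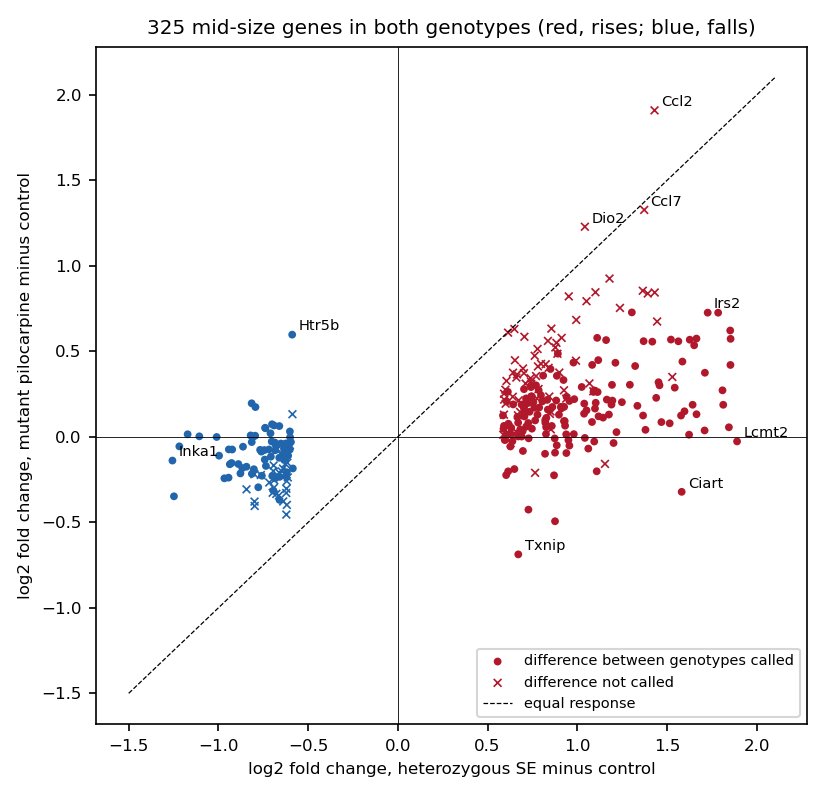
Log2 fold change in Srf mutants with pilocarpine without SE (vertical axis) against that in heterozygous mice in SE (horizontal axis) for the 325 mid-size genes, each against the controls of its genotype, with a dashed line of equal response. Crosses mark genes whose difference between genotypes was not called; most points lie between the line and 0, while Ccl2 and Dio2 lie above the line and Htr5b falls in one genotype and rises in the other.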

How the data were processed

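Hippocampal RNA was hybridised by the authors to Affymetrix Mouse Gene 1.0 ST arrays. The deposited log2 values come from their robust multiarray averaging in Affymetrix Expression Console, a procedure that subtracts background, equalises the distributions of all arrays and combines the probes of a probe set; versions, the transcript annotation and scan dates are not given in the sources used here. Of 35556 probe sets, the platform annotation names a gene for 23410, of which 21789 have 1 gene and 1621 several; 12146 are unnamed here. A gene was represented by whichever of its 1-gene probe sets was brightest on average over the series, and 21698 of the 21789 matched the GRCm38.p6 gene table by Entrez identifier.

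All 12 arrays were fitted with limma 3.58.1 (R 4.3.3), using lmFit with 4 group means, no block, and eBayes; Benjamini-Hochberg adjustment ran over the 23410 probe sets. Genes were called at an adjusted p under 0.05. The members and the 72 gene lists were chosen with earlier results of these data known; lists are described by counts and medians, with no test of the list. Named are the 15 largest mid-size rises and falls with separated groups, and up to 4 called members of each list by size of change; Cdk11b, Scg2, Vgf, Tac1, Sst, Hspa8, Hsp90aa1, Npy5r, Htr1a, Sstr1, Sstr2, Dio2, Usp53, Trmt61b, the members at the 1.5-fold limits, those at 4-fold or more, those named for neighbours or promoters and those in the closing observations were named after their values were seen. Gene list sums are log2 of summed linear levels. Promoter and microRNA sequences are from RefSeq; 271 of 300 microRNA genes had an entry.

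The number of arrays limits the precision. The fit was tested on simulated data for this contrast over 23410 probe sets, where 82% of rises of 0.5 (log2), 98% of rises of 1, 92% of falls of 0.5 and 100% of falls of 1 were recovered. Each size was given to 50 probe sets, the errors were independent between probe sets, and 9 unchanged probe sets were called. The data held many more calls, 993 higher and 1496 lower genes, so that recovery there can differ. Alternatives changed how the spread is shared, the filter on dim values, the normalization, the arrays fitted, their weights, probe sets, the test, a block and each left-out array; sex as a covariate was added after the data were seen. Tables were handled in Python 3.11.15 (pandas 2.3.3).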

Additional observations from a re-analysis of the deposited data

Results flagged for a closer look

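The response in heterozygous mice in SE was called different from that in mutants with pilocarpine and no SE, by limma's test of the difference itself, for all 30 genes named as the largest mid-size rises and falls and for 5 further genes. The 30 genes were ranked by their heterozygous change, which is a part of the difference, so that a smaller change in mutants was favoured by the choice and these calls are descriptions. Genotype and SE cannot be told apart in these differences. Values are heterozygous minus mutant log2 fold changes. Among the rises they were 1.92 for Lcmt2, 1.28 for Rasl11a, 1.43 for Gpr19, 1.23 for Gm13889, 1.79 for Vps37b, 1.63 for Gla, 1.54 for Rassf1, 1.06 for Dusp4, 1.00 for Irs2, 1.34 for Slc16a1, 1.67 for Siah2, 1.53 for Ccnl1, 1.09 for Gpr3, 1.12 for Mir212 and 1.46 for Plaur. Irs2 and Dusp4 had the smallest of these differences, since both also rose by 0.73 in the mutants. Among the falls they were -1.12 for Inka1, -0.90 for Zfp39, -1.16 for Zfp72, -1.19 for Zfp418, -1.11 for Zfp128, -1.01 for Zfp719, -0.89 for Gdpgp1, -0.72 for Gpr75, -0.70 for Neurod1, -0.87 for Gm527, -0.78 for Zfp87, -0.77 for Kbtbd8, -0.85 for Rpp38, -0.73 for Fkbpl and -0.66 for Rtl3.

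A further 5 genes had fold changes of opposite sign in the 2 pairs of groups, although the mutant change was called for Htr5b alone. Ciart, a clock repressor, differed by 1.90, with 1.58 in heterozygous mice and -0.32 in the mutants. Htr5b differed by -1.19. Txnip, a glucose-regulated inhibitor of thioredoxin, differed by 1.36, with 0.67 and -0.69, and its call in heterozygous mice (limma adjusted p = 0.0403) was lost in 9 of 17 alternative limma fits. The small nucleolar RNA genes Snord14e and Snord16a differed by 1.15 and 1.37.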

How the results depend on the processing

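None of the 237 calls named by the rule reversed under any alternative. Of the 325 mid-size genes, 311 kept their call in each of the 17 limma alternatives that tested them. The exceptions were Alyref2, Cd93, Gjb2, Kcnf1, Mir138-2, Pdk4, Rgs16, Sstr1, Tac1, Tcim, Thbd, Txnip, Zfp763 and Zfp941. With dim probe sets left out, 302 of the 325 were called and the others were not tested. Of the 237 calls named by the rule, 22 to 32 were lost with each left-out heterozygous array and 106 in the unpaired test. The counts of small falls were less stable than those of rises. An unpaired test of each gene by its own spread called 397 genes higher and 500 lower, 61 of the falls by 1.5-fold or more, in place of 993, 1496 and 100. At an unadjusted p of at most 0.05 it called 1591 and 3008. It also left 7 and 47 genes with a Zfp symbol higher and lower, and 9 mitochondrial ribosomal proteins, 7 modulator receptors and 2 cholesterol synthesis genes in the direction described. Leaving out each heterozygous array gave 772 to 899 rises and 972 to 1266 falls. Among the lists, smaller counts moved by over 1.5 times as well when 1 array was left out: falls from 4 to as few as 1 in TGF-beta signalling and p53 targets, from 5 to as few as 3 in mRNA decay and neuronal transcription factors, from 4 to 2 in potassium channels and microglia markers, and rises from 4 to 2 in Notch genes and modulator receptors. The 3 falls among CREB and ATF genes became as few as 1. In cAMP signalling and in hypoxia targets, 2 falls became as few as 0, and 0 after median centring. The number of falls was 986 without the third control, which is the female, and 972 without the third mouse in SE. With the same arrays left out, 276 to 315 genes rose and 88 to 130 fell by 1.5-fold, and 135 to 154 rose and 5 to 9 fell by 2-fold. With any 1 of the 12 arrays left out, the mid-size genes with a smaller response in mutants numbered 133 to 162 rises and 54 to 78 falls, and with array weights 173 and 80. Median centring gave 1019 and 1048 calls, so that 49.3% of calls were rises in place of 39.9%, and moved the median of all genes from -0.03 to -0.01.

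The animal numbers do not pair the mice: deviations of same-numbered heterozygous mice correlated at -0.12 to 0.05. With the animal number as a replicate block, 931 genes were called higher and 1274 lower, and 323 of the 325 mid-size genes kept their call, the exceptions being Gjb2 and Txnip. With sex as a covariate, added after the data were seen, the counts were 906 and 1332. Array brightness limits the rest: dim genes such as Il1a and Crh can understate a change. SE, the drugs that caused it and the time since injection cannot be separated, and mutants that reached SE were not analysed here.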

Other observations

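Some mid-size rises that the lists do not describe are given here singly, and they were chosen after their values were seen. Cdk11b rose by 1.08, the m6A reader Ythdc1 by 0.94, pinin, Pnn, by 0.68, Leng8 by 0.65, Fnbp4 by 0.60 and the splicing kinase Clk4 by 0.59 (log2), and all 6 were between -0.19 and 0.23 in the mutants. The ribonucleotide reductase subunit Rrm1 rose by 0.94, the origin factor Orc1 by 0.98, from dim levels, and Pcna by 0.77. Of 33 cyclins and cell cycle genes, 4 were called higher (12.1%) and 2 lower (6.06%), beside 4.98% and 7.5% of all genes, with a median of 0.04. Tinf2 and Acd, of the telomere-binding shelterin complex, rose by 1.58 and 0.69, while its other members were not called: Terf1 was at 0.23, Terf2 at 0.01, Terf2ip at -0.02, Pot1a at -0.05 and Pot1b at -0.04.

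Of 41 imprinted genes measured, a list also made after the values were seen, 9 were called higher (22.0%, beside 4.98% of all genes) and 1 lower (2.44%, beside 7.5%), 5 of them by 1.5-fold or more, with a median of 0.02. The 5 were Zdbf2 (1.36), Mest (1.16), the noncoding Rian (1.15), Asb4 (1.10) and the retrotransposon-derived Peg10 (0.88). Zdbf2, Mest and Peg10 were at 0.85, 0.57 and 0.55 in the mutants.

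Probe sets without a gene in the annotation also held calls. Of 12146 such probe sets, 321 were called higher (2.64%) and 124 lower (1.02%), in a fit adjusted over all 35556 probe sets. Of the 19938 genes, the same fit called 853 higher and 1169 lower. These are fewer than in the main fit, adjusted over 23410 probe sets, with its 4.98% and 7.5% of genes. At 1.5-fold or more, 169 unnamed probe sets rose (1.39%) and 18 fell (0.148%). Among genes, the same fit had 288 such rises and 98 such falls, and the main fit 1.46% and 0.502%. The largest rise of an unnamed probe set was 3.25 and the largest fall -1.14 on the log2 scale.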
